A study of Mus musculus with 6 samples.

Results

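Glycolysis splits glucose into pyruvate and gluconeogenesis runs the reverse route, and the genes described here encode the enzymes of both, together with sugar transporters and the bifunctional enzymes that set the level of fructose 2,6-bisphosphate, a regulator of both routes. They were chosen by their place in the pathway, with earlier results of the same KOStra8 against HETStra8 comparison known, so counts, fold changes and medians over them are descriptions. The 44 symbols matched 45 Ensembl identifiers of the 55536 in the files, because Aldoa has 2 identifiers in GENCODE M21. Of these, 43 passed the filter on low counts, as did 21465 genes in all, and Hkdc1 and Pklr did not.

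RNA was measured in whole testes of 7-week-old mice, 3 KOStra8 and 3 HETStra8 littermates, with 1 library per mouse. KOStra8 mice carried Sel1L flox/Δ and Stra8-Cre, a transgene that expresses Cre recombinase from a promoter active in male germ cells. HETStra8 mice are given in the design text as Sel1L flox/Δ with no Cre named, whereas the study's text pools Sel1L flox/+;Stra8-Cre and Sel1L flox/Δ under that name, so every mouse of both groups carried at least 1 floxed allele and the controls were not wild type. The question was whether loss of SEL1L, a subunit of a ubiquitin ligase complex that clears misfolded proteins from the endoplasmic reticulum, changes the transcripts of the testis. Libraries held 28875108 to 36526695 counts in genes. Sel1l was 46.4 ± 3.59 CPM (counts scaled to a common library total, SD, n = 3) in HETStra8 and 22.2 ± 1.97 CPM (n = 3) in KOStra8 testes, with non-overlapping groups, and the testis also holds somatic cells in which Stra8-Cre is not active.

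Developing sperm are known for replacing several housekeeping glycolytic enzymes with germ cell isozymes. Phosphoglycerate kinase 1 is X-linked, and Pgk2 is its intronless autosomal copy, expressed in spermatocytes and spermatids. Ldhc, Gapdhs, Eno4, Aldoart1 and Aldoart2 encode the corresponding lactate dehydrogenase, glyceraldehyde 3-phosphate dehydrogenase, enolase and aldolases, several of them bound to the fibrous sheath of the sperm tail, where glycolysis supplies ATP for motility.

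The germ cell isozymes resemble their somatic partners in sequence, so stretches of coding sequence are shown here to let their differences be seen. The sequences are from GENCODE M21 transcripts on GRCm38, 5′ to 3′ on the coding strand. Capitals mark the bases that are not the same in every gene of a set. Coding bases were identical at 79.3% of aligned positions between Pgk1 and Pgk2. The 60 coding bases below span 3 exons of Pgk1 (chrX:106187311-106194359, + strand) and lie within the single exon of Pgk2 (chr17:40208416-40208475, − strand).
Pgk1: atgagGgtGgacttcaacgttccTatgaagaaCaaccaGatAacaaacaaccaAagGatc
Pgk2: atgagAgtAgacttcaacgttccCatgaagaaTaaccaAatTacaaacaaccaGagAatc

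The 3 lactate dehydrogenases below differed at 22 of these 60 positions. Over the coding sequence, Ldhc was 73.7% identical to Ldha and 65.4% identical to Ldhb. Ldha (chr7:46847677-46847736, + strand) and Ldhc (chr7:46861827-46861886, + strand) are neighbours on the same chromosome, and Ldhb (chr6:142505421-142505480, − strand) lies elsewhere.
Ldha: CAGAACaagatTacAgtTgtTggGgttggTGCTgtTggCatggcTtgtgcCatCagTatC
Ldhb: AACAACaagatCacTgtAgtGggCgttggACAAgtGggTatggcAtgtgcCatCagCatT
Ldhc: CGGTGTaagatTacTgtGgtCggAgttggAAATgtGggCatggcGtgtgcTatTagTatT

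The aldolases were the closest set. Aldoart1 was 93.9% and Aldoart2 91.6% identical to Aldoa over aligned coding bases, and the stretches of Aldoa (chr7:126797696-126797755, − strand), Aldoart1 (chr4:72852345-72852404, − strand) and Aldoart2 (chr12:55565292-55565351, + strand) differed at 9 positions.
Aldoa: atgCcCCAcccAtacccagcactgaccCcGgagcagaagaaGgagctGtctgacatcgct
Aldoart1: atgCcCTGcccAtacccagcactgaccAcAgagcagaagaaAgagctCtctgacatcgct
Aldoart2: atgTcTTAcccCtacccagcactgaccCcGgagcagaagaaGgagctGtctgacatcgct

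How far reads could be shared was measured as the percent of a gene's 50-base stretches of exon that occur exactly in another gene. None were shared for Pgk2, Ldhc, Gapdhs, Eno4, Ldhal6b or Pgam2. Aldoart1 shared 5.79%, mostly with Aldoa, and Aldoart2 shared 0.311%. Several somatic partners were far more exposed, at 53.9% for Pgk1, with Pgk1-rs7, 36.2% for Pgam1, 26.0% for Eno1, 25.8% for Pkm, 24.7% for Gapdh and 21% for Ldhb, so their counts are uncertain. Many members overlap a gene on the opposite strand, among them Gapdh, Gapdhs, Hk1, both Aldoa identifiers, Eno4, Gpi1, Tpi1, Pfkm and Pfkp. Ldhal6b, Pkm, Pfkm, Slc2a3, Pfkfb2 and Pfkfb3 overlap one on the same strand. The strand setting of the counting is not given in the sources used here.

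Germ cell isozymes made up nearly all transcripts of the GAPDH and PGK steps, most of those of lactate dehydrogenase, and a minority of enolase. Levels were compared between genes as CPM per kilobase of merged exons. On this scale Ldhc was the most abundant member, at 1614 ± 95.1 CPM per kilobase in HETStra8 testes (SD, n = 3), followed by Gapdhs at 897 ± 12.6, Pgam2 at 633 ± 60.1, Ldhal6b at 508 ± 39.3 and Pgk2 at 450 ± 9.82. Pgam2, known from muscle as a phosphoglycerate mutase, and Ldhal6b, an intronless lactate dehydrogenase gene, ranked among the germ cell isozymes. In HETStra8 mice none of these 5 genes overlapped the next one in the order, although the lowest Ldhal6b and the highest Pgk2 values nearly touched. Fbp1, Hk1 and Ldha came next, at 264 ± 18.2, 260 ± 9.39 and 257 ± 21.3 CPM per kilobase, and on this scale did not differ from each other beyond that spread. Merged exons and the longest transcript were 8532 and 4278 bases for Hk1, and 3310 and 1815 bases for Ldha. Ldhal6b, at 1445 bases, and Pgk2, at 1626 bases, had the same length by both measures. The order of these genes therefore depends on the length used.

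**Figure D1:**
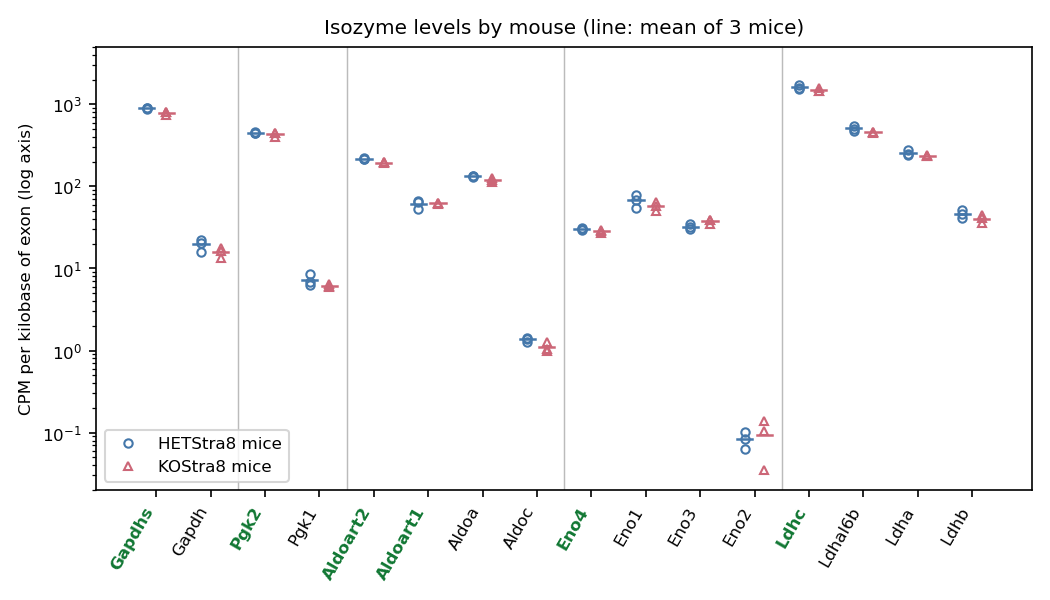
Level of the isozymes of 5 enzymatic steps in each mouse, in CPM per kilobase of merged exons on a log axis, with germ cell isozymes in bold green. Circles are HETStra8 mice, triangles KOStra8 mice and lines the mean of 3 mice. Gapdhs and Pgk2 sit far above Gapdh and Pgk1 in all 6 mice, whereas Eno4 sits below Eno1.

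By the group means, the order within each step was the same in both genotypes. In HETStra8 mouse 1, however, Eno4 held 21.8% of enolase and Eno3 21.6%, the reverse of their order by the means. Pgk2 exceeded Pgk1 by 52.1-fold to 74.7-fold per kilobase in the 6 mice, and Gapdhs exceeded Gapdh by 40.7-fold to 59.6-fold. Ldhc exceeded Ldha by 6.13-fold to 6.57-fold, and by 3.88-fold to 4.15-fold per kilobase of the longest transcript. Eno4 was below Eno1 in all 6 mice, at 0.386 to 0.587 of its level, and at 0.146 to 0.222 per kilobase of the longest transcript. Aldoart2 stood at 1.55 to 1.70 times Aldoa per kilobase of merged exons but at 0.822 to 0.907 of it per kilobase of the longest transcript, so the order of these aldolases depends on the length used.

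As shares of their steps, averaged over the 6 mice, Pgk2 made up 98.5%, Gapdhs 97.9% and Ldhc 66.8%. Ldhal6b held 20.7%, Ldha 10.6% and Ldhb 1.86% of lactate dehydrogenase. Within aldolase, Aldoart2 held 49.6%, Aldoa 30.4%, Aldoart1 14.9% and the second Aldoa identifier 4.77%. The share of this identifier did not overlap between genotypes, with means of 5.25% in HETStra8 and 4.30% in KOStra8 mice. Enolase was shared by Eno1 with 49.0%, Eno3 with 27.8% and Eno4 with 23.2%, and per kilobase of the longest transcript Eno1 held 70.4%, Eno3 16.9% and Eno4 12.6%, while Eno2, the neuronal form, held 0.0686%. Outside these steps, Pgam2 made up 98.5% of phosphoglycerate mutase and Hk1 97.5% of hexokinase.

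The shares of Pgk2, Gapdhs, Ldhc, Eno4 and Aldoart2 overlapped between genotypes. In the order of the mouse numbers, which holds for every such list here, the share of Ldhc was 66.1%, 66.0% and 67.6% in HETStra8 mice, and KOStra8 mice had 67%, 67.6% and 66.7%. The share of Aldoart1 was 12.3%, 14.7% and 15.1% in HETStra8 and 16.4%, 15.1% and 15.9% in KOStra8 mice. Aldoart1 was the germ cell isozyme whose share did not overlap between groups, with KOStra8 mouse 2 and HETStra8 mouse 3 almost equal and HETStra8 mouse 1 lowest.

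**Figure D2:**
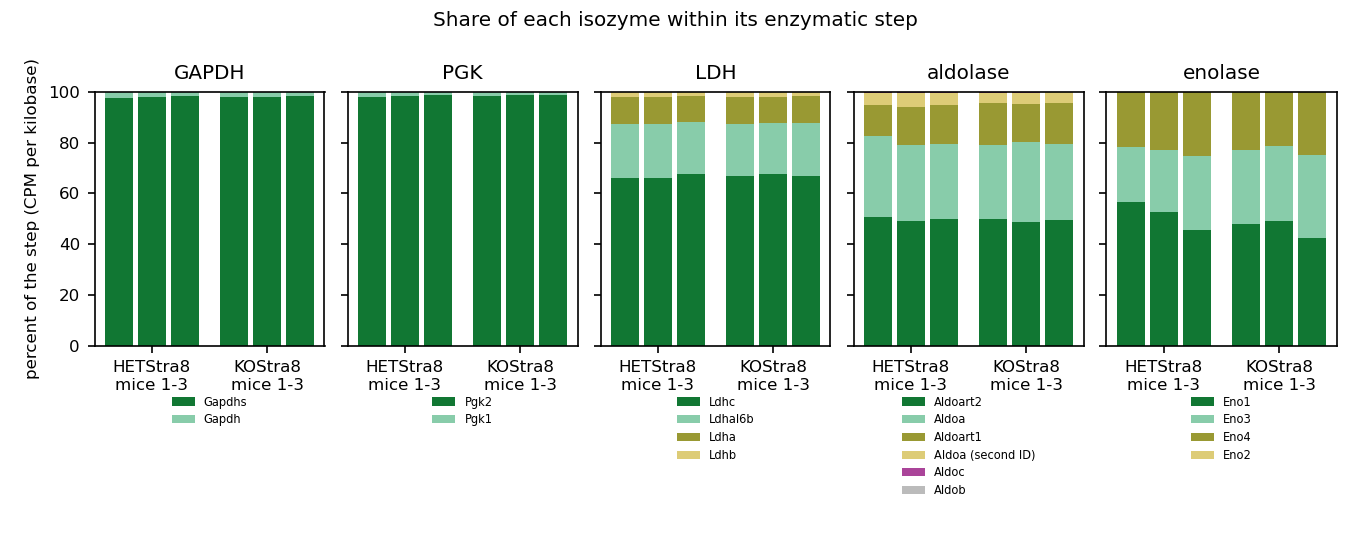
Percent of each enzymatic step held by each of its isozymes, from CPM per kilobase of merged exons, with 1 bar per mouse, HETStra8 on the left and KOStra8 on the right of each panel. Gapdhs and Pgk2 fill nearly the whole bar in every mouse, and the Aldoart1 part did not overlap between the groups. In enolase the mean Eno1 part was 51.5% in HETStra8 and 46.4% in KOStra8 mice and the mean Eno3 part 25.1% and 30.5%, with overlap.

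Between genotypes, no member passed the call of a 2-fold change with an adjusted p below 0.01 in edgeR's quasi-likelihood test, beside 2 of 21465 genes, or 0.00932%. No member had an adjusted p below 0.05 either, and over the 43 members edgeR's adjusted p ranged from 0.167 to 0.989. Differences were small and mostly downward: 35 members were lower and 8 higher in KOStra8, beside 51.5% of all tested genes lower. At an unadjusted p below 0.05, 11 members were lower and 1 higher, beside 5.12% of all tested genes lower and 7.13% higher. The median log2 fold change was −0.14, against −0.0094 over all tested genes, and it was −0.089 without HETStra8 mouse 1. In 15 members the highest KOStra8 value was under the lowest HETStra8 value, beside 8.43% of all tested genes, and in 0 members the groups were separated the other way, beside 9.33%. The downward separation went with level. It held for 13 of the 27 members with a mean of at least 50 CPM and for 2 of the 16 tested members under it. All tested genes were not split by level.

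Part of this downward shift moved with base composition. Across the 21457 tested genes with a GC value, log2 fold change fell with GC content (Spearman rho = −0.47, over genes of the same 6 libraries), and the members were GC-rich, with a median of 53.9% against 49.2%. Across the 43 members themselves rho was −0.40. With offsets that remove each library's trend on GC content and transcript length, the members' median log2 fold change was −0.056, with 31 lower and 12 higher, beside 50.7% of all tested genes lower. On that fit 4 members, Tpi1, Pgk2, Ldhc and the second Aldoa identifier, were lower and Eno3 was higher at an unadjusted p below 0.05, beside 3.22% and 3.74% of all tested genes. Whether the trend is technical was not tested.

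**Figure D3:**
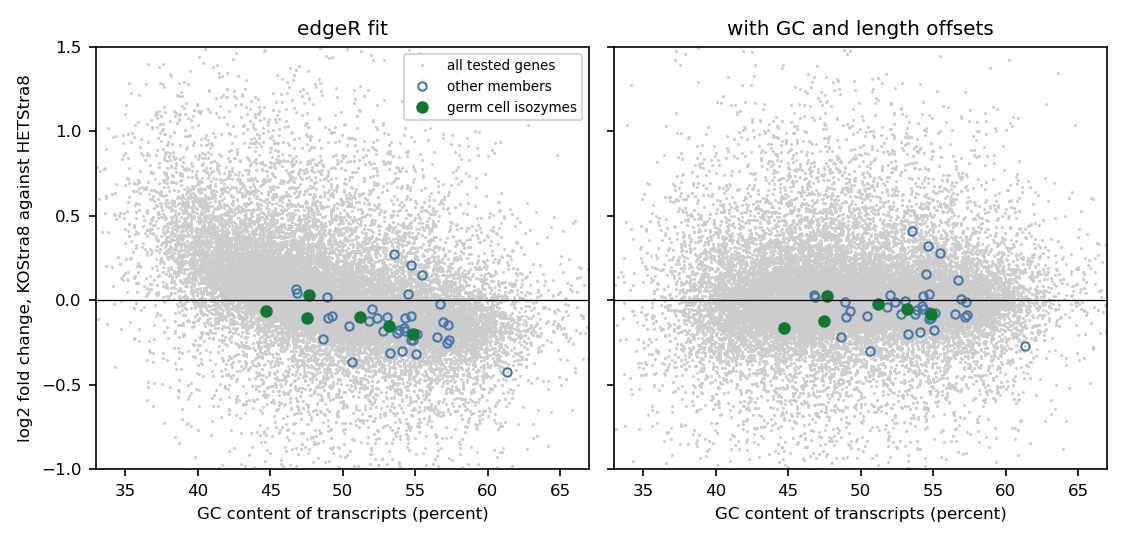
GC content of transcripts in percent against the log2 fold change of KOStra8 over HETStra8, without (left) and with (right) offsets for GC content and length. Grey points are all tested genes within the axes, open circles the members and filled green circles the 6 germ cell isozymes. The grey cloud slopes down on the left, and most members sit towards its GC-rich end and move towards 0 on the right.

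Among the germ cell isozymes, Gapdhs, Aldoart2 and Eno4 were lower in every KOStra8 mouse than in every HETStra8 mouse, and Pgk2, Ldhc and Aldoart1 overlapped. Groups were compared in CPM without the offsets, where 8.43% of all tested genes were lower in this way. The median log2 fold change of the germ cell isozymes was −0.10, and −0.064 with GC and length offsets. The 9 somatic isozymes of the same steps, which leave out the second Aldoa identifier, had a median of −0.18, with 7 lower and 2 higher. Their median was −0.084 with the offsets and −0.094 without HETStra8 mouse 1. Aldoa, Aldoc and Ldha did not overlap between groups. The germ cell isozymes had a median GC content of 49.4% and the somatic ones 54.7%. No test of germ cell against somatic isozymes was made, since the comparison was known when the genes were chosen.

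Gapdhs, whose product is the glyceraldehyde 3-phosphate dehydrogenase of the sperm tail, was 1459, 1453 and 1421 CPM in HETStra8 mice and 1184, 1313 and 1282 CPM in KOStra8 mice. No KOStra8 value reached the HETStra8 range, which was narrow. On the log2 scale the fold change was −0.20 (SE 0.062), and −0.079 with the offsets. Its housekeeping partner Gapdh was 92.1, 84.8 and 66.5 CPM in HETStra8 and 66.5, 73.8 and 55.2 CPM in KOStra8 mice. Here the groups overlapped, with HETStra8 mouse 3 at the level of KOStra8 mouse 1. Gapdh had a log2 fold change of −0.32 (SE 0.13), and −0.18 with the offsets. The Gapdhs to Gapdh ratio per kilobase was 46.5 ± 7.41 in HETStra8 and 50.3 ± 8.02 in KOStra8 testes (SD, n = 3 each), an overlap.

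Pgk2, which makes ATP from 1,3-bisphosphoglycerate in germ cells, was 723, 749 and 721 CPM in HETStra8 and 644, 724 and 733 CPM in KOStra8 mice. KOStra8 mouse 1 was low and the other two lay within the HETStra8 range. Its log2 fold change was −0.062 (SE 0.068), and was 0.0022 without KOStra8 mouse 1. With the offsets it was −0.16, a shift opposite to that of most members, and Pgk2 has a low GC content of 44.7%. Pgk1 was 19.2, 15.4 and 14 CPM in HETStra8 and 13.5, 14.3 and 13.5 CPM in KOStra8 mice, where HETStra8 mouse 1 stood above the other 5. Pgk1 had a log2 fold change of −0.23 (SE 0.13), and −0.094 without HETStra8 mouse 1.

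Ldhc, the lactate dehydrogenase of spermatocytes, spermatids and sperm, was 2721, 2440 and 2490 CPM in HETStra8 and 2314, 2475 and 2323 CPM in KOStra8 mice. KOStra8 mouse 2 lay within the HETStra8 range. Ldhc had a log2 fold change of −0.11 (SE 0.063), and −0.13 with the offsets. Ldha, the form that dominates in muscle, was 930, 830 and 794 CPM in HETStra8 and 785, 794 and 769 CPM in KOStra8 mice. The groups nearly touched, with HETStra8 mouse 3 just above KOStra8 mouse 2. Ldha had a log2 fold change of −0.12 (SE 0.070), −0.038 with the offsets and −0.054 without HETStra8 mouse 1. Ldhal6b was 797, 722 and 685 CPM in HETStra8 and 640, 672 and 673 CPM in KOStra8 mice, without overlap. For Ldhal6b the log2 fold change was −0.15 (SE 0.070), −0.096 with the offsets and −0.089 without HETStra8 mouse 1. Ldhb, the heart form, had overlapping groups and a log2 fold change of −0.18 (SE 0.10), −0.084 with the offsets and −0.090 without HETStra8 mouse 1.

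The aldolases cleave fructose 1,6-bisphosphate. Aldoart2 was 357, 357 and 364 CPM in HETStra8 and 318, 329 and 325 CPM in KOStra8 mice. The groups were tight and did not overlap. Aldoart2 had a log2 fold change of −0.15 (SE 0.064), and −0.049 with the offsets. Aldoart1 was 108, 133 and 136 CPM in HETStra8 and 129, 126 and 129 CPM in KOStra8 mice, so HETStra8 mouse 1 was lower than the other 5. For Aldoart1 the log2 fold change was 0.032 (SE 0.089), and −0.067 without HETStra8 mouse 1, so it has no settled direction.

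Aldoa was 394, 388 and 377 CPM in HETStra8 and 328, 373 and 348 CPM in KOStra8 mice. The groups did not overlap, and the log2 fold change was −0.14 (SE 0.070), and −0.0083 with the offsets. The second Aldoa identifier, ENSMUSG00000114515, covers chr7:126800790-126809108 just upstream and has 4 exons of its own. It was 16.4, 20.6 and 17.8 CPM in HETStra8 and 12.6, 14.5 and 13.7 CPM in KOStra8 mice. At −0.42 (SE 0.13) it had the largest log2 fold change of the members, and −0.27 with the offsets, with GC content at 61.4% of its bases. Aldoc, at 4.45 ± 0.219 CPM in HETStra8 and 3.59 ± 0.482 CPM in KOStra8 testes (SD, n = 3 each), had a log2 fold change of −0.31 (SE 0.20), and −0.20 with the offsets.

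Enolase converts 2-phosphoglycerate to phosphoenolpyruvate. Eno4, required for a normal sperm tail, was 79.0, 76.1 and 78.1 CPM in HETStra8 and 69.7, 73 and 75 CPM in KOStra8 mice. The groups did not overlap but lay close together, and the log2 fold change was −0.10 (SE 0.078), and −0.022 with the offsets. Eno1, the ubiquitous form, was 428, 368 and 294 CPM in HETStra8 and 308, 349 and 267 CPM in KOStra8 mice, with a wide spread in both groups. Eno1 had a log2 fold change of −0.24 (SE 0.14), −0.11 with the offsets and −0.10 without HETStra8 mouse 1. Eno1 shares sequence with Eno1b, whose part of their summed counts ran from 1.33% to 11.8% among HETStra8 mice and from 3.12% to 10.01% among KOStra8 mice. Summed with Eno1b, a step added after seeing the data, the log2 fold change was −0.23 (SE 0.098).

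Of the 8 members that were higher, Eno3, the muscle enolase, was the 1 at an unadjusted p below 0.05 in edgeR's quasi-likelihood test. It was 53.0, 55.0 and 61.2 CPM in HETStra8 and 60.2, 68.2 and 67.2 CPM in KOStra8 mice. HETStra8 mouse 3 and KOStra8 mouse 1 overlapped by a small margin. The log2 fold change was 0.21 (SE 0.090), and 0.32 with the offsets, and it stayed between 0.16 and 0.28 when any 1 mouse was left out. The 6 skeletal muscle markers summed to 1.5 to 2.91 CPM in HETStra8 and 1.75 to 2.61 CPM in KOStra8 mice. Of these markers, 2 passed the filter on low counts, Ckm and Mylpf. Whether muscle RNA has a part in the Eno3 counts was not tested.

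**Figure D4:**
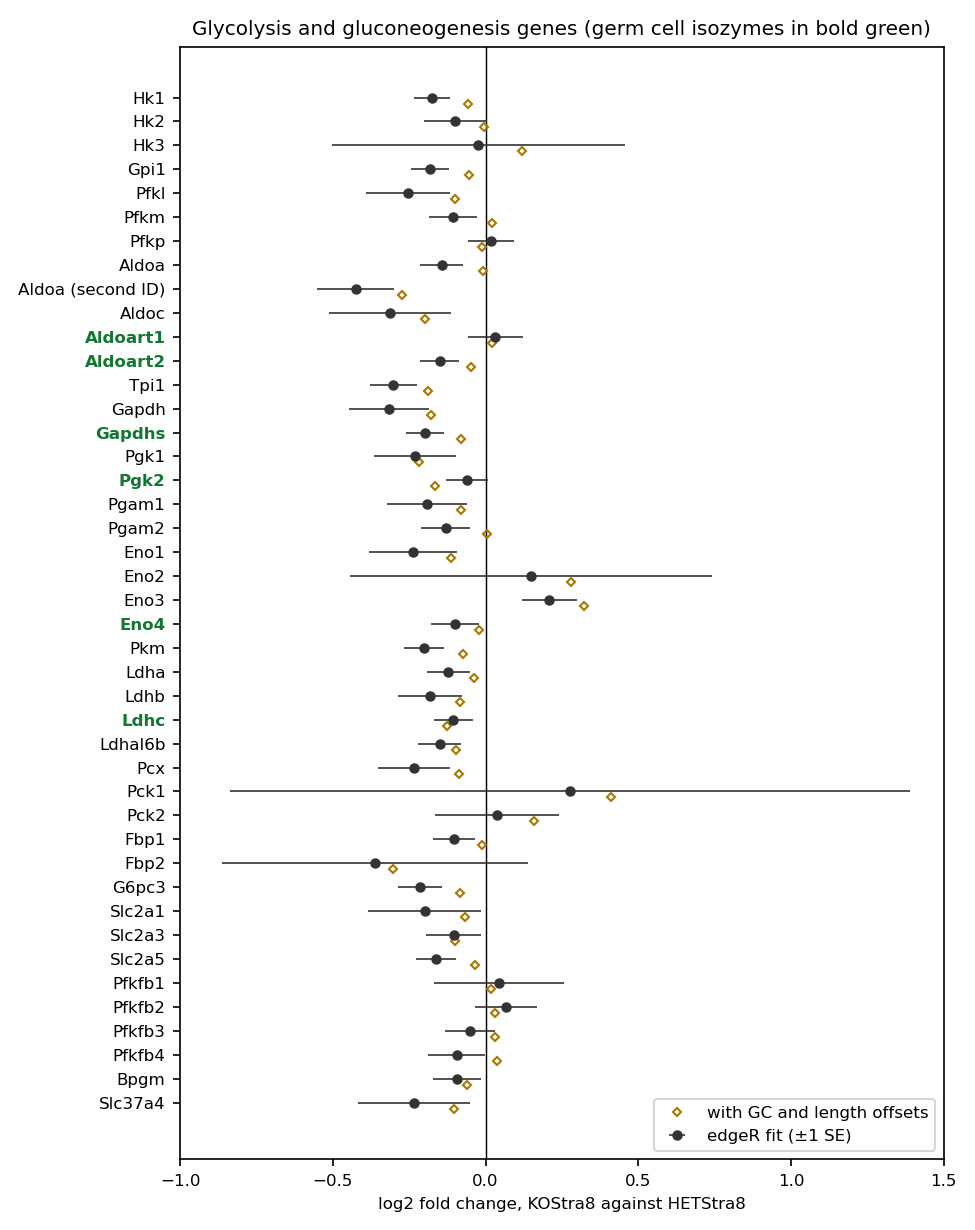
Log2 fold change of KOStra8 over HETStra8 for the 43 tested members in the order of the pathway, as black points with bars of 1 SE, and with GC and length offsets as open diamonds. Germ cell isozymes are in bold green. Most points lie between 0 and −0.32, most diamonds lie nearer to 0, and Pgk2 and Eno3 are among the members that move away from 0.

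In the upper part of glycolysis, Hk1, the hexokinase that traps glucose in the cell, was 2225, 2297 and 2137 CPM in HETStra8 and 1913, 1994 and 1989 CPM in KOStra8 mice. The groups did not overlap. Hk1 had a log2 fold change of −0.18 (SE 0.059), and −0.056 with the offsets. Gpi1, glucose-6-phosphate isomerase, was 558, 538 and 529 CPM in HETStra8 and 465, 480 and 488 CPM in KOStra8 mice, again without overlap. Its log2 fold change was −0.18 (SE 0.063), and −0.054 with the offsets. Hk2 overlapped between groups at 38.1 ± 3.53 and 35.5 ± 2.95 CPM, and Hk3 was at most 1.32 CPM in any mouse.

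Phosphofructokinase commits sugar to glycolysis. Of its subunit genes, Pfkm made up 75.2% per kilobase, Pfkp 21.1% and Pfkl 3.77%. The groups overlapped for each. The log2 fold changes were −0.11 (SE 0.079) for Pfkm, 0.018 (SE 0.074) for Pfkp and −0.25 (SE 0.14) for Pfkl. With the offsets, Pfkm turned to 0.022 and Pfkp to −0.011, and Pfkl was −0.10. Pfkl was −0.14 without HETStra8 mouse 1.

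Tpi1, triose-phosphate isomerase, which interconverts the products of aldolase, had the lowest adjusted p of the members. It was 379, 384 and 335 CPM in HETStra8 and 275, 314 and 302 CPM in KOStra8 mice. The groups did not overlap, with HETStra8 mouse 3 nearest to the KOStra8 mice. The log2 fold change was −0.30 (SE 0.077), and −0.19 with the offsets, and the adjusted p in edgeR's quasi-likelihood test was 0.17. Without HETStra8 mouse 3 the log2 fold change was −0.35 and edgeR's adjusted p was 0.0080, and DESeq2 on all mice gave an adjusted p of 0.036. Gapdh likewise had an adjusted p of 0.036 in edgeR without HETStra8 mouse 3, beside 0.37 with all mice. Leaving out that mouse brought many genes below an adjusted p of 0.05 in edgeR, 868 higher and 214 lower of 22091. With DESeq2 on all mice, 306 genes were higher and 48 lower at that threshold, of 12232 with an adjusted p. Neither Tpi1 nor Gapdh reached a 2-fold change in any of these fits.

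In the lower part, Pgam2 was 585, 525 and 485 CPM in HETStra8 and 469, 520 and 466 CPM in KOStra8 mice, with overlap. Its log2 fold change was −0.13 (SE 0.079), 0.0055 with the offsets and −0.057 without HETStra8 mouse 1. Pgam1 overlapped too, at 20.0 ± 3.25 and 17.5 ± 1.45 CPM. Pkm, pyruvate kinase, was 394, 383 and 392 CPM in HETStra8 and 331, 353 and 333 CPM in KOStra8 mice, without overlap. Pkm had a log2 fold change of −0.20 (SE 0.065), and −0.073 with the offsets. Pklr, the liver and red cell pyruvate kinase, had 13 counts in HETStra8 mouse 1, 3 in KOStra8 mouse 3 and none elsewhere. Bpgm, which makes 2,3-bisphosphoglycerate, overlapped and had a log2 fold change of −0.094 (SE 0.079), and −0.061 with the offsets.

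The sugar transporters feed the pathway. Slc2a3, a glucose transporter, was 1729, 1385 and 1307 CPM in HETStra8 and 1377, 1335 and 1401 CPM in KOStra8 mice. HETStra8 mouse 1 stood above the other 5, and without it the log2 fold change turned from −0.10 (SE 0.090) to 0.026. Slc2a5, the fructose transporter, was 854, 823 and 753 CPM in HETStra8 and 716, 727 and 728 CPM in KOStra8 mice, without overlap. Its log2 fold change was −0.16 (SE 0.066), and −0.034 with the offsets. Slc2a1, the widespread glucose transporter, was low at 6.06 ± 0.787 and 5.27 ± 0.714 CPM, and Slc2a3 exceeded it by 101-fold to 140-fold per kilobase.

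Gluconeogenic genes were uneven in level. Fbp1, fructose-1,6-bisphosphatase, was the abundant one, at 449 ± 31.0 CPM in HETStra8 and 418 ± 5.75 CPM in KOStra8 testes, with a log2 fold change of −0.10 (SE 0.069), −0.012 with the offsets and −0.045 without HETStra8 mouse 1. G6pc3, a glucose-6-phosphatase of the endoplasmic reticulum, was 153, 147 and 140 CPM in HETStra8 and 127, 130 and 122 CPM in KOStra8 mice, without overlap. G6pc3 had a log2 fold change of −0.21 (SE 0.073), and −0.083 with the offsets. Slc37a4, its glucose-6-phosphate transporter, overlapped at 9.54 ± 1.03 and 8.10 ± 2.04 CPM, and Pcx, pyruvate carboxylase, at 37.0 ± 4.17 and 31.4 ± 4.10 CPM. Pck1 and Fbp2, of the cytosolic carboxykinase and muscle phosphatase, were near the limit of detection. Pck1 had 31, 36 and 9 counts in HETStra8 and 85, 4 and 8 counts in KOStra8 mice, so its log2 fold change of 0.28 (SE 1.1) rests on KOStra8 mouse 1, without which it was −2.07, and was 0.41 with the offsets. Fbp2 was 0.414, 0.594 and 0.480 CPM in HETStra8 and 0.401, 0.311 and 0.438 CPM in KOStra8 mice, and its log2 fold change of −0.36, −0.30 with the offsets, had an SE of 0.50. Pck2, the mitochondrial carboxykinase, overlapped at 4.05 ± 0.415 and 4.16 ± 0.595 CPM.

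The 4 Pfkfb genes, whose products make and break down fructose 2,6-bisphosphate, overlapped between genotypes, with log2 fold changes from −0.094 to 0.067. With the offsets all 4 were above 0, Pfkfb4 turning from −0.094 to 0.038 and Pfkfb3 from −0.052 to 0.031. Pfkfb4, a testis-enriched form, held 52.6% of their level per kilobase and Pfkfb3 31.2%. Of the remaining hexokinases, Hkdc1 had 0 to 15 counts per mouse.

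Neighbouring pathways were read from lists of other genes. Of 29 further sugar metabolism genes 23 were tested, with a median log2 fold change of −0.034, and of these Pgm2l1, which makes glucose 1,6-bisphosphate, was higher at an unadjusted p below 0.05, with a log2 fold change of 0.40 (SE 0.10), and 0.19 with the offsets. Among 11 pentose phosphate genes the median was −0.10, and −0.012 with the offsets. Taldo1 was lower at that threshold, with a log2 fold change of −0.35, and −0.24 with the offsets. Tktl2, named after its values were seen, was higher, with 0.20, and 0.081 with the offsets. Among 10 genes of glycerol phosphate and pyruvate entry the median was −0.085, and −0.11 with the offsets. Dld was higher at that threshold, with a log2 fold change of 0.23 (SE 0.087), but turned to −0.064 with the offsets. None of these genes passed the call.

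In whole-testis RNA, fewer cells of a type and less RNA per cell cannot be told apart. Some cell type markers moved with genotype. The 6 Sertoli cell markers summed to 849 to 1033 CPM in HETStra8 and 704 to 820 CPM in KOStra8 mice, most of it from Clu, with a log2 fold change of −0.28. All 6 log2 fold changes were below 0, but that of Sox9 was −0.010 (SE 0.12), and with the offsets Sox9 and Wt1 were above 0. The list's median was −0.21, and −0.12 with the offsets. The log2 fold changes of the 6 Leydig cell markers were all below 0, and their sums overlapped at 497 to 742 and 418 to 537 CPM. Spermatocyte markers summed to 2055 to 2309 CPM in HETStra8 and 2418 to 2442 CPM in KOStra8 mice, without overlap, and 4 of the 6 had a log2 fold change above 0. Log2 fold changes were 0.97 (SE 0.39) for Sycp1, 0.49 (SE 0.27) for Sycp3 and 0.14 (SE 0.066) for Adam3. With the offsets these were 0.52, 0.0094 and 0.060. Piwil1, Ccna1 and Spag6 had −0.023, 0.0043 and −0.038, and 0.091, 0.088 and 0.085 with the offsets. The sums of the 6 round spermatid markers overlapped, at 1010 to 1079 CPM in HETStra8 and 985 to 1071 CPM in KOStra8 mice. Those of the 6 elongating spermatid markers did too, at 12802 to 12855 and 11538 to 13054 CPM. Epididymis markers summed to 0.360 to 7.38 CPM in HETStra8 and 0.0859 to 0.164 CPM in KOStra8 mice, without overlap. The highest of these sums was mostly Crisp1, at 7.00 CPM in HETStra8 mouse 1. Blood markers summed to at most 32.0 CPM in any mouse. The part of cell composition in the member differences was not tested.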

How the data were processed

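The authors prepared poly(A)-selected, strand-specific libraries from whole testis, sequenced them as 150-base pairs and deposited raw counts per Ensembl gene for each mouse. The submitters' processing notes name FastQC, Trimmomatic, STAR 2.7.1a, Picard 2.20.4, StringTie 2.0.4, featureCounts 1.6.0 and HTSeq with builds mm10 and GRCm38, with no role or order. Genes were named from GENCODE M21. Members and lists were chosen with earlier results of these data known.

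Counts were filtered (filterByExpr), scaled by TMM and tested in edgeR 4.0.16 (R 4.3.3) with the robust quasi-likelihood test, genotype as the only term and Benjamini-Hochberg adjustment over 21465 genes. A call required a 2-fold change and adjusted p below 0.01, the cutoffs of the study's methods. Log2 fold changes are KOStra8 over HETStra8, and CPM values use TMM-scaled totals. Alternatives were DESeq2 1.42.0, limma-voom 3.58.1, other scalings and filters, GC and length offsets (loess), a replicate block, and leaving out each mouse. Values of every mouse are printed for germ cell isozymes, the main somatic isozyme of each step, members at an unadjusted p below 0.05 and the 3 largest log2 fold changes, plus some further members chosen after their values were seen. The test was checked on simulated counts with 200 changed genes. Their set changes were larger than any member's log2 fold change on all mice. Whether differences as small as the members' can be detected was therefore not checked. Separate mice are the replicates.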

Additional observations from a re-analysis of the deposited data

How the results depend on the processing

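The call was sensitive over the whole table, and the members' median moved most with the offsets for GC content and length together. Of the members, 13 changed sign in some setting. Genes called, 2 in all, came to 39 with no filter, 6 with DESeq2, 5 with the replicate block, 5 at an adjusted p below 0.05, 2630 at an unadjusted p below 0.05 and 1 to 44 with 1 mouse left out (44 without HETStra8 mouse 3). Members called stayed at 0 in each alternative that kept the 2-fold call, and came to 12 at an unadjusted p below 0.05. The members' median log2 fold change of −0.14 was −0.056 with GC and length offsets and −0.062 with the replicate block and the offsets, and ranged from −0.17 to −0.089 with 1 mouse left out (−0.089 without HETStra8 mouse 1). The somatic isozymes' median of −0.18 ranged from −0.25 to −0.094 in this way. The germ cell isozymes' median of −0.10 was −0.064 with the offsets, with or without the block, and −0.13 to −0.073 with 1 mouse left out. The mice shared only a number: same-number correlations were −0.060, −0.053 and 0.11, and no mouse number was treated as a pair. In the replicate block the members' calls were unchanged.

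Shares moved with the length used. Per kilobase of the longest transcript they were 98.2% for Pgk2, 64.6% for Ldhc, 12.6% for Eno4, 11.8% for Aldoart1 and 39.1% for Aldoart2, and without length 97.9%, 60.9%, 16.1% for Pgk2, Ldhc and Eno4, 94.9% for Gapdhs and 39.9% for Aldoart2. Of 643 member values recomputed, 39 moved by more than 1 SD, 18 of them with the offsets alone. The sign held in every setting that gave a value for 30 members, 28 of them lower, and 6 members changed sign with the offsets. The cause was not tested. With 3 mice per group, 0 members at an adjusted p below 0.05 in edgeR compares with 12 at an unadjusted p below 0.05, 1 by DESeq2 after adjustment (Tpi1) and 2 with no filter (Tpi1 and Gapdh). Over all genes, DESeq2 had 306 higher and 48 lower of 12232 at an adjusted p below 0.05. With no filter, edgeR had 542 higher and 118 lower of 35894 at that threshold.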

Other observations

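The ratio of Aldoart2 to Aldoart1 per kilobase was 4.10, 3.33 and 3.32 in HETStra8 mice and 3.04, 3.22 and 3.12 in KOStra8 mice, the germ cell isozyme ratio whose groups did not overlap. It was chosen after its values were seen, and HETStra8 mouse 1 stood furthest from the rest.

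Counts assigned to Eno1b differed between mice of the same group, at 182, 399 and 1310 in HETStra8 and 404, 326 and 1086 in KOStra8 mice, whereas Eno1 was lowest in the mouse of each group in which Eno1b was highest.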
